A study of Mus musculus with 4 samples.

Results

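Epoxomicin was compared with its solvent in J774.1, a mouse monocyte-macrophage cell line, on 2 of the 4 arrays of the study, 1 array for each condition. Cells had been kept for 4 hours with 1 µM epoxomicin, an inhibitor of the 20S proteasome, or with DMSO alone, and the labels name no other agent for either culture. The 2 arrays were chosen by their titles, and every probe that was not a control entered the comparison. The gene lists used below were chosen with earlier results of these data known. Of 39429 probes, 26581 (67.4%) could be given a gene symbol, and they stood for 20144 genes. A gene was compared when either array gave its probe a signal that the scanner software called well above background, and 13870 genes had a difference that could be given. The other 2 arrays of the series, of MG132 and of a compound titled ONX, were used only for values set beside those of epoxomicin. A single array per condition leaves no replicate spread, so no difference below has a P value. No difference, large or small, can be set against the variation between cultures, and a value near the threshold cannot be told from chance.

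The proteasome degrades proteins that carry chains of ubiquitin, and epoxomicin blocks its active sites by a covalent bond. Cells with a blocked proteasome hold misfolded and short-lived proteins for longer, and they are known for switching on heat shock genes, the integrated stress response, the antioxidant program of Nrf2 and new synthesis of proteasome subunits. In macrophages the proteasome also destroys the inhibitors of NF-kB, cuts peptides for display on MHC class I and removes cyclins, p53 and several transcription factors.

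The values are processed signals, in arbitrary units of fluorescence, which the scanner software gave after it had subtracted the background of the array. A difference is the log2 of the epoxomicin signal minus that of the DMSO signal, after the 75th percentile of each array (a signal of 1647 with DMSO and 1669 with epoxomicin) had been subtracted. The threshold for calling a gene higher or lower was 2-fold, or 1 on that scale. Both arrays lay on the same slide. Spots well above background made up 63.1% of the DMSO array and 60.9% of the epoxomicin array. All 9 macrophage markers that had a named probe were above background on both arrays, from *Adgre1* at 440 with DMSO to *Csf1r* at 210824. The markers of B cells and NK cells were below background on both arrays. Of 4 T cell markers, *Cd3e* and *Cd4* were above background on both arrays, as was 1 of 2 granulocyte markers, *Elane*. Of 3 fibroblast markers 2 were above background on both arrays, and both endothelial markers were, with DMSO signals of at most 151. The summed signal of the macrophage markers was 481513 with DMSO and 402881 with epoxomicin, and *Lyz2*, which encodes lysozyme, was 2-fold lower (a signal of 3756 with DMSO and 1894 with epoxomicin). *Krt8* and *Krt18*, keratins taken as epithelial markers, were below background with DMSO and stood at 121 and 33.7 with epoxomicin, whereas *Epcam* was below background on both arrays. The part of other cells in the results was not tested. RNA was measured in bulk, so a loss of cells that carry a transcript and a loss of the transcript from each cell cannot be told apart.

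More genes were higher with epoxomicin than lower, and by larger folds. Of the 13870 genes, 1177 (8.49%) were higher by 2-fold or more and 611 (4.41%) were lower by as much. The median difference over all genes was -0.04, and 69.2% of genes lay within 1.5-fold. At 4-fold the counts were 337 higher and 60 lower, at 8-fold 134 higher and 5 lower, and at 16-fold 53 higher and 0 lower. The median difference was 1.504 among the higher genes and -1.26 among the lower genes. Of the calls reported here 65.8% were higher, whereas under normexp, a model of spot and background brightness, 15.8% were (569 higher and 3028 lower), and the median of all genes fell by 0.26. With control spots and outlier spots left out of the normexp fit, 697 genes were higher and 380 lower, so that 64.7% of calls were higher.

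**Figure D1:**
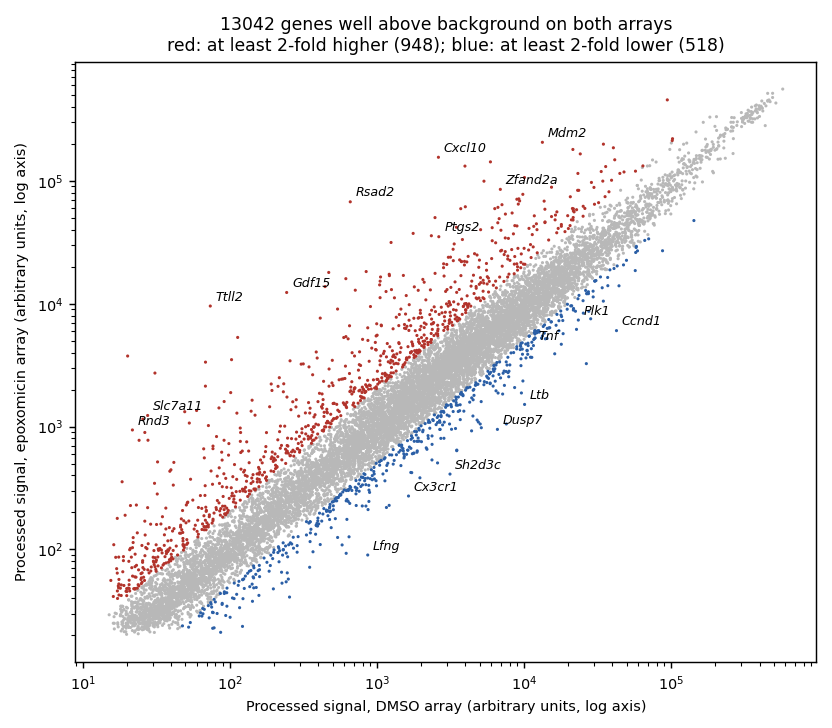
Processed signal on the DMSO array (x axis) and on the epoxomicin array (y axis), both in arbitrary units on log axes, for the 13042 genes well above background on both arrays. Points in red are the 948 genes higher by 2-fold or more and points in blue the 518 lower by as much. The red points reach farther from the diagonal than the blue ones, with *Ttll2* at 73.7 and 9572 and *Lfng* at 867 and 90.0.

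The calls were spread over the range of brightness. Split into 5 equal bins by mean signal, the 13042 genes measured on both arrays had 8.43% higher in the dimmest bin and 6.02% in the brightest, and the share lower was 3.37% in the dimmest bin, 5.21% in the next and 2.61% in the brightest. Among 217 higher genes with at least 2 probes above background on both arrays, all probes pointed the same way in 210 and all passed 2-fold in 159. Among 106 such lower genes, all probes pointed the same way in 101 and passed 2-fold in 56. The genes nearest the threshold were *Sde2* (1.0007) inside and *Ccng1* (0.99946) outside it on the higher side, and *Kif20b* (-1.0003) inside and *Pagr1a* (-0.99997) outside it on the lower side.

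The largest increases among genes measured on both arrays brought together interferon-inducible genes, stress genes and several genes known from other tissues. *Gm4841*, an immunity-related GTPase, had a signal of 20.2 with DMSO and 3750 with epoxomicin, a difference of 7.52 (183-fold). *Ttll2*, a member of the tubulin tyrosine ligase-like family, went from 73.7 to 9572, a difference of 7.001 (128-fold). *Gdf15*, a secreted stress cytokine, went from 244 to 12340 (5.64, 49.9-fold). *Slc7a11*, the cystine importer that feeds glutathione synthesis, was near the floor of the DMSO array at 27.7 and stood at 1231 with epoxomicin (5.46, 43.9-fold). *Batf2*, a transcription factor of the AP-1 type that interferon induces, went from 113 to 5315 (5.53, 46.3-fold). *Grhl2*, a transcription factor best known from epithelia, went from 25.7 to 1150 (5.47, 44.2-fold). *Rnd3*, a GTP-binding protein that acts on the actin cytoskeleton, had signals of 21.8 and 938 (5.41, 42.5-fold). All of these were called well above background on both arrays. The DMSO signals of *Gm4841*, *Slc7a11*, *Grhl2* and *Rnd3* lay near the lowest one so called, 14.7, and their folds rest on these faint values. *Rab15*, a GTPase of endosome traffic, had 103 and 3504 (5.07, 33.6-fold), and its other probe was faint on both arrays and differed by 0.23. *Arid5a*, an RNA-binding protein known to stabilize *Il6* transcripts, was already well expressed with DMSO at 3973 and reached 131912 (5.03, 32.8-fold). *Stmn4*, a stathmin of the microtubule system, was measured by 2 probes that gave 4.19 and 4.34.

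Several of these genes also had a signal on the ONX array that lay far below that of epoxomicin. *Ttll2* stood at 6441 with MG132 and 668 with ONX, *Grhl2* at 501 and 17.9, and *Rnd3* at 485 and 94.7. The ONX signal of *Grhl2* was not well above background. *Rsad2* (viperin), an antiviral enzyme, was high on all 3 inhibitor arrays, at 39790 with MG132, 67508 with epoxomicin and 25520 with ONX against 660 with DMSO. The 3 differences share the DMSO array.

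**Figure D2:**
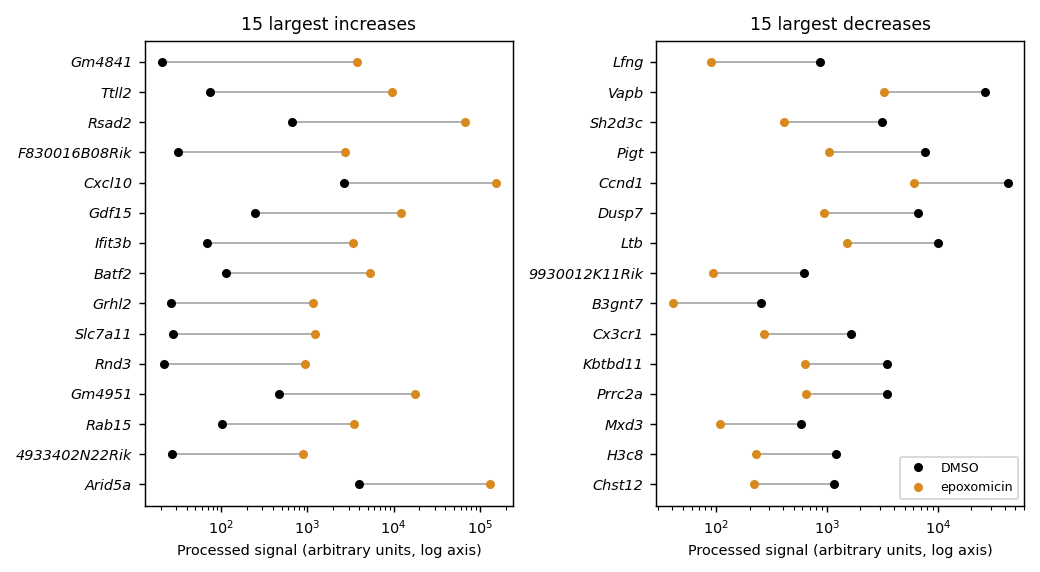
Processed signal (arbitrary units, log axis) with DMSO in black and with epoxomicin in orange for the 15 largest increases and the 15 largest decreases among genes well above background on both arrays and with a signal of at least 200 on the brighter one. The increases start between 20.2 (*Gm4841*) and 3973 (*Arid5a*), and the decreases end between 40.9 (*B3gnt7*) and 6037 (*Ccnd1*).

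Another 344 genes with a difference were above background with epoxomicin only. Of these, 229 were higher by at least 2-fold even when the bound of the DMSO array was put in place of their signal. For these genes the fold is a lower bound. The dim side was taken as the lowest signal that counted as well above background on its array (14.7 with DMSO and 20.3 with epoxomicin), or as the gene's own signal if that was brighter. *Spink2*, a serine protease inhibitor of the Kazal type, was at 1993 with epoxomicin, at least 134-fold higher. *Unc93a*, a membrane protein, was at 1531, at least 94.96-fold higher. *Serpina3f*, a serine protease inhibitor, was at 1245, at least 83.5-fold higher. In the other direction 484 genes were above background with DMSO only and 93 were lower by at least 2-fold, led by *Rprml*, which was at 182 with DMSO and at least 9.08-fold lower with epoxomicin.

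Genes of the integrated stress response were almost uniformly higher. In this response, kinases that sense amino acid lack, heme lack, viral RNA or misfolded proteins phosphorylate eIF2α, and the transcription factor ATF4 is then translated. Of 16 members compared, 14 were at least 2-fold higher and none was lower, with a median difference of 2.43. This and the counts below stand against 8.49% higher and 4.41% lower over all genes. *Atf3*, a transcription factor downstream of ATF4, went from 5919 with DMSO to 142720 with epoxomicin (4.57, 23.8-fold). *Chac1*, which degrades glutathione, went from 1766 to 37345 (4.38, 20.9-fold). *Trib3*, a pseudokinase that feeds back on ATF4, went from 10086 to 106499 (3.38, 10.4-fold). *Ddit3* (CHOP), a factor tied to cell death under stress, went from 998 to 6864 (2.76, 6.79-fold). *Ppp1r15a* (GADD34), which returns eIF2α to its unphosphorylated state, went from 3300 to 27741 (3.05, 8.29-fold). *Atf4* itself was 2.12-fold higher, and the members that missed the threshold were *Atf5* (0.98) and *Cebpb* (0.85).

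The enzymes and carriers that ATF4 is known to drive followed in part. Of 17 genes of amino acid synthesis and transport, 10 were higher and none was lower (median 1.23). The glycine carrier *Slc6a9* went from 1052 to 11197 (3.39, 10.5-fold), and *Cth*, which makes cysteine from cystathionine, went from 1661 to 9817 (2.54, 5.83-fold). *Asns*, the asparagine synthetase, went from 23595 to 83728 (1.81). *Psph*, which completes serine synthesis, stood at 1751 with DMSO and 1191 with epoxomicin (-0.58). Of 20 cytosolic tRNA synthetases, 8 were higher and none was lower (median 0.83), from *Cars* for cysteine (1.90) to *Hars* for histidine (-0.11) and *Dars* for aspartate (-0.11).

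The composite site that C/EBP and ATF factors share, searched as TGATGNAA on both strands, occurred in 3.97% of the 32851 RefSeq promoter windows of GRCm38.p6, each of 250 bases before and 50 after a start. It was in 6 of 20 windows of the integrated stress response list and in 2 of 17 windows of the list of amino acid synthesis and transport. The share was 2.73% for the windows of all genes compared, 5.51% for those of higher genes and 1.99% for those of lower genes. Windows were found for 11070 of the genes compared. A match describes letters only and no binding was measured. The windows of *Gdf15*, *Trib3*, *Ddit3*, *Sesn2* and *Slc6a9* held no match before the start. The stretches that hold the site in 4 of the genes above are shown 5′ to 3′ on the gene's strand, with the matched letters in capitals.
*Slc7a11* (chr3:50443623-50443709, minus strand): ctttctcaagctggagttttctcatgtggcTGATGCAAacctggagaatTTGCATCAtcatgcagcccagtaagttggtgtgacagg
*Chac1* (chr2:119351019-119351086, plus strand): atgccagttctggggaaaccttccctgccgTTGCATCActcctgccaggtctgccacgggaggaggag
*Atf3* (chr1:191183406-191183473, minus strand): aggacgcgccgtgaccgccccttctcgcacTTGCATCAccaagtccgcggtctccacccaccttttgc
*Asns* (chr6:7693210-7693262, minus strand): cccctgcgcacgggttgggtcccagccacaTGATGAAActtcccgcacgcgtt
*Slc7a11* carries 2 copies that face each other between positions -66 and -40 from its start, and *Asns* has its copy at -23 to -16.

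Cytosolic chaperones were higher as a group of fewer members. Of 22 heat shock genes compared, 9 were higher and none was lower (median 0.88). *Hspa1a*, the inducible Hsp70, was below background with DMSO and at 203 with epoxomicin, at least 13.6-fold higher. Its near-identical copy *Hspa1b* had no named probe, and a probe may read both. *Hsph1* (Hsp110) went from 6658 to 60860 (3.17, 9.02-fold). *Bag3*, a co-chaperone that hands clients to autophagy, went from 3064 to 23869 (2.94, 7.68-fold). *Hsp90aa1*, the stress-inducible Hsp90, went from 40571 to 185890 (2.18, 4.52-fold), whereas the constitutive *Hsp90ab1* differed by 0.46. *Hspa8*, the constitutive Hsp70, stood at 265027 and 299838 (0.16). The inducible form was thus past 2-fold in both the Hsp70 and Hsp90 pairs, and the constitutive form in neither.

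The heat shock element, searched as GAANNTTCNNGAA, was in 0.603% of all promoter windows, in 0.481% of the windows of all genes compared, in 0.603% of those of higher genes, in 0.497% of those of lower genes and in 5 of 26 windows of the heat shock list (19.2%). *Hspd1* and *Hspe1*, the mitochondrial chaperonin genes, sit head to head and share a pair of overlapping matches. They missed the threshold, at 0.99 and 0.91. The windows of *Hsph1*, which was past it, held no match before the start.
*Hspd1* (chr1:55088029-55088106, minus strand): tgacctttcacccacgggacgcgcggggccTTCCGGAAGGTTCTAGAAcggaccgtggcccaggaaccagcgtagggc

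Of 21 genes of the endoplasmic reticulum, 2 were higher and none was lower (median -0.20). *Herpud1*, an anchor of the machinery that exports misfolded proteins to the proteasome, went from 6425 to 31323 (2.27, 4.81-fold), and *Dnajb9*, a co-chaperone, from 1411 to 4820 (1.75, 3.37-fold). *Hspa5* (BiP), the main chaperone of that compartment, stood at 111689 and 154163 (0.45), and *Calr* at 60366 and 39462 (-0.63).

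Transcripts of the proteasome stayed within 2-fold. None of the 14 genes of the 20S core passed the threshold (median 0.09, from -0.14 to 0.45), and none of the 29 genes of the 19S regulator, its assembly and its control did (median 0.22). *Psmb5*, the catalytic subunit of the chymotrypsin-like site, stood at 129247 and 130436 (-0.01). The lid and base subunits with the highest values were *Psmd12* (0.86), the ubiquitin receptor *Adrm1* (0.83) and *Psmc2* (0.78), and the lowest value was that of *Pomp* (-0.63), the chaperone that completes the core. *Nfe2l1* (Nrf1), the factor known for driving proteasome genes, stood at 534 and 823 (0.60).

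Of 29 genes of ubiquitin supply, p97 cofactors and autophagy, 6 were higher and none was lower (median 0.38). *Ubb*, a polyubiquitin gene, went from 183783 to 330258 (0.83). *Zfand2a* (AIRAP), a proteasome-associated zinc finger protein that arsenite induces, went from 6914 to 85261 (3.60, 12.2-fold). *Sqstm1* (p62), an autophagy receptor for ubiquitin, went from 4801 to 24906 (2.36, 5.12-fold), and *Gabarapl1*, of the ATG8 family, from 39432 to 101164 (1.34, 2.53-fold).

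Targets of Nrf2, which KEAP1 hands to the proteasome, moved in a minority. Of 23 compared, 6 were higher and none was lower (median 0.28). Besides *Slc7a11*, *Hmox1*, the heme oxygenase, went from 8672 to 43209 (2.30, 4.92-fold). *Srxn1*, the sulfiredoxin, went from 13916 to 46324 (1.72, 3.28-fold), and *Gclm*, the modifier of glutathione synthesis, from 1283 to 3711 (1.51, 2.85-fold). Ferritin heavy chain *Fth1* stood at 301589 and 322563 (0.08). Among 12 genes of metal handling, 3 were higher, the iron exporter *Slc40a1* (1.497), the zinc exporter *Slc30a1* (1.05) and *Mtf1* (1.01), the factor that drives metallothioneins. The metallothionein *Mt1* stood at 190382 and 207735 (0.11) and *Mt2* at 74887 and 147947 (0.96).

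Targets of p53 were higher in most cases, and the p53 transcript was not. *Trp53* stood at 1607 with DMSO and 1538 with epoxomicin (-0.08). Of 19 members of the list compared, 13 were higher and 1 was lower (median 1.82). *Mdm2*, the ubiquitin ligase of p53, went from 13352 to 206014 (3.93, 15.2-fold). *Plk2*, a kinase of the polo family, went from 1515 to 16988 (3.47, 11.1-fold), and *Gadd45a*, a growth arrest gene, from 387 to 4045 (3.37, 10.3-fold). *Cdkn1a* (p21), the inhibitor of cyclin-dependent kinases, went from 8955 to 70851 (2.96, 7.80-fold). The apoptosis genes *Pmaip1* (Noxa; 2.78) and *Bbc3* (Puma; 2.40) were higher as well. *Sesn1* was lower, from 3427 to 964 (-1.85, 3.60-fold), while its relative *Sesn2*, on the list of the integrated stress response, was higher (3.06). On the list of the BCL2 family 2 of 11 were higher and 1 was lower, and *Pmaip1* and *Bbc3* were counted with the p53 targets. *Bcl2l11* (BIM), which promotes apoptosis, went from 217 to 2499 (3.504, 11.3-fold), *Bak1*, a pore former, from 27442 to 12503 (-1.15, 2.22-fold lower), and *Bcl2*, the protective member, stood at 5173 and 2941 (-0.83).

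**Figure D3:**
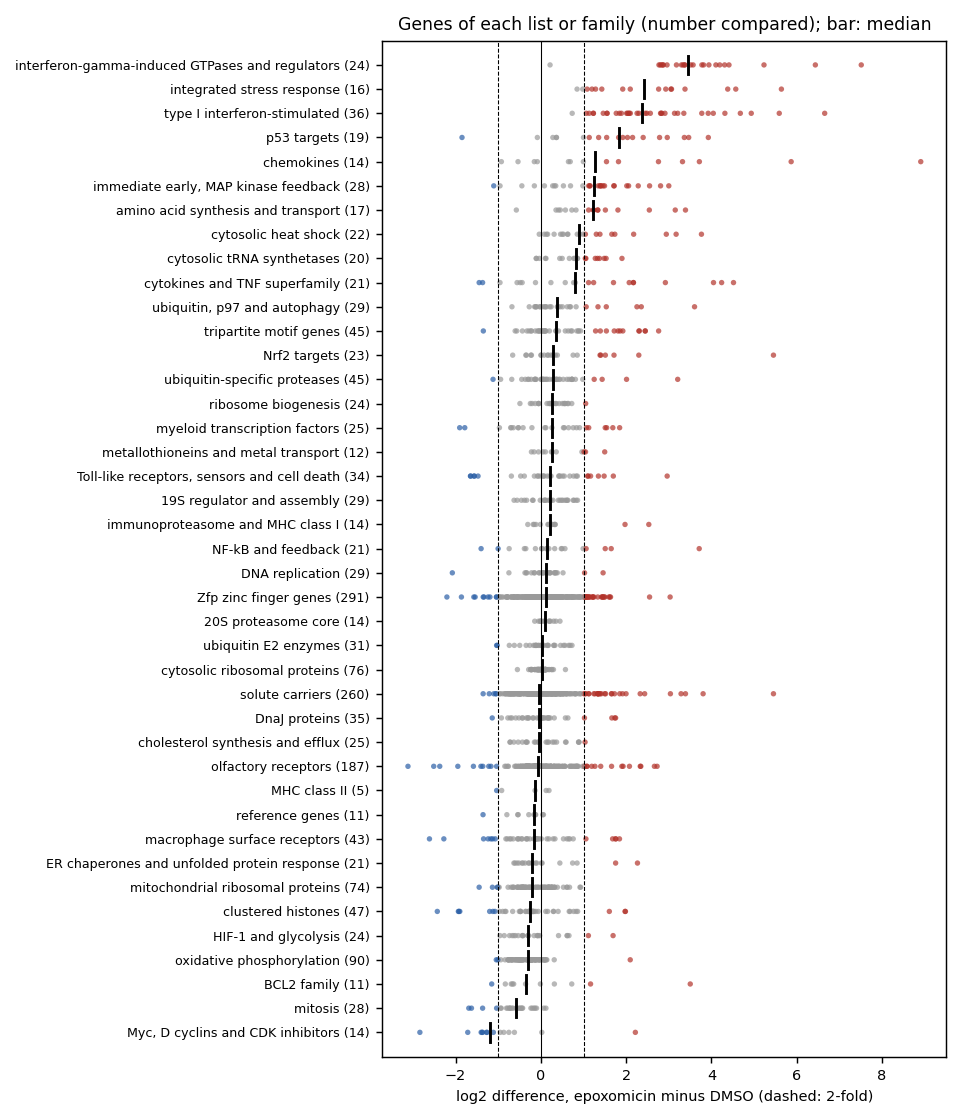
Differences of the genes in each list or family (x axis, log2, epoxomicin minus DMSO), with the number of genes compared after the name. Each point is a gene, red where at least 2-fold higher and blue where at least 2-fold lower, bars mark medians and dashed lines mark 2-fold. The medians run from 3.45 for the GTPases and regulators induced by interferon-γ to -1.19 for Myc, D cyclins and inhibitors of cyclin-dependent kinases. The latter list does not hold *Cdkn1a*.

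Interferon-inducible genes were almost all higher. Of 36 genes of the type I list, 35 were higher (median 2.37), and of 24 genes of the interferon-γ list, 23 were (median 3.45). *Cmpk2*, a nucleotide kinase next to *Rsad2* in the genome, went from 444 to 13783 (4.94, 30.6-fold), and its other probe gave 4.80. *Ifit3*, which binds foreign RNA with its relatives, went from 616 to 15985 (4.68, 25.6-fold), and its near copy *Ifit3b*, which its probe may also read, differed by 5.59. *Isg15*, a modifier resembling ubiquitin, went from 3996 to 61539 (3.93, 15.2-fold). *Gbp2b*, a guanylate-binding protein, went from 846 to 18268 (4.41, 21.3-fold). *Socs1*, the brake on JAK kinases, went from 316 to 3236 (3.34). The members that missed the threshold were *Zbp1* (96.7 and 163, 0.73) and *Nos2* (849 and 999, 0.22).

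The promoter windows of these lists were searched as well. The core of the interferon-stimulated response element, searched as GAAANNGAAA, was in 3.44% of all windows, in 3.29% of those of all genes compared, in 18 of 35 windows of the type I list (51.4%) and in 11 of 17 of the interferon-γ list (64.7%). It was in 99 of 1161 windows of higher genes (8.53%), in 51 of 325 windows of genes at least 4-fold higher (15.7%) and in 13 of 604 windows of lower genes (2.15%). Neighboring members of one gene cluster share sequence, so the windows are not independent. Examples with 1, 2 and 3 matches are shown, the matched letters in capitals.
*Gbp2b* (chr3:142594680-142594749, plus strand): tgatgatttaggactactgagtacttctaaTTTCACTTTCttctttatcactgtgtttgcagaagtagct
*Ifit1* (chr19:34640755-34640843, plus strand): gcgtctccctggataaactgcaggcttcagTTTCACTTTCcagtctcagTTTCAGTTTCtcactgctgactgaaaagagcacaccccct
*Ifit3* (chr19:34583343-34583446, plus strand): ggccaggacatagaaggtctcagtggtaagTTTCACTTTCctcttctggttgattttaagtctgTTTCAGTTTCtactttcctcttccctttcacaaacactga
*Isg15* (chr4:156200845-156200926, minus strand): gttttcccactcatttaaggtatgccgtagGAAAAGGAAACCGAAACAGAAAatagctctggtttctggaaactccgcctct

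Of the 4 receptor chains that start interferon signaling, 3 were lower. *Ifngr2*, a chain of the interferon-γ receptor, went from 4407 with DMSO to 922 with epoxomicin (-2.28, 4.84-fold lower). *Ifngr1*, the other chain, went from 3854 to 1783 (-1.13), and *Ifnar1*, of the type I receptor, from 1902 to 759 (-1.34). *Ifnar2* stood at 9856 and 8357 (-0.26). Antigen presentation was split. *Nlrc5*, the transactivator of MHC class I genes, went from 2865 to 16796 (2.53, 5.78-fold), and the peptide pump *Tap1* from 1575 to 6274 (1.97, 3.93-fold). The other 12 genes of the immunoproteasome and MHC class I list lay between -0.31 and 0.34, among them *Psmb8* (-0.12), *Psmb9* (0.33) and *B2m* (0.34). None of the 5 MHC class II genes compared was higher, and *H2-DMa* was lower (785 and 388, -1.04).

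Cytokine genes moved in both directions. Of 21 cytokine and TNF superfamily genes compared, 10 were higher and 2 were lower (median 0.81). *Il10*, an anti-inflammatory cytokine, was below background with DMSO and at 342 with epoxomicin, at least 22.9-fold higher. *Il1rn*, the antagonist of the interleukin-1 receptor, went from 18.5, near the floor of the DMSO array, to 355 (4.24, 18.9-fold). The pro-inflammatory *Il1b* was higher too, by 2.07 on a probe printed 10 times. *Csf1*, the growth factor of macrophages, went from 2055 to 15768 (2.92, 7.57-fold). *Tnf* went from 11606 to 4561 (-1.37, 2.58-fold lower), and *Csf2* (GM-CSF) from 107.01 to 39.8 (-1.45, 2.73-fold lower). *Ltb*, lymphotoxin-β, which was on no list, was among the largest decreases, from 10103 to 1513 (-2.76, 6.77-fold lower).

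Among 14 chemokines compared, 7 were higher and none was lower (median 1.27). Apart from the ligands of CXCR3, *Ccl8* went from 257 to 3428 (3.72, 13.2-fold), *Cxcl2*, which attracts neutrophils, from 652 to 6613 (3.32) and *Ccl7*, which attracts monocytes, from 24160 to 165713 (2.76, 6.77-fold). *Ccl5* stood at 1702 and 1551 (-0.15), and *Ccl9* at 16276 and 8680 (-0.93). Of 21 NF-kB subunits, inhibitors and targets, 4 were higher and 2 were lower (median 0.14). *Ptgs2* (COX-2) went from 2638 to 35099 (3.71, 13.1-fold) and *Icam1* from 457 to 1318 (1.51, 2.85-fold). The genes of the inhibitors *Nfkbia* (-0.39), *Nfkbie* (-1.003) and *Nfkbid* (-1.40) lay below 0. The NF-kB element, searched as GGGNNTTTCC, was in 1.63% of all promoter windows, in 1.72% of those of all genes compared, in 2.84% of those of higher genes and in 1.99% of those of lower genes. *Cxcl2* has 2 matches between positions -97 and -69 and *Il6* has 1, and the windows of *Ptgs2*, *Irf1*, *Cxcl9* and *Cxcl10* hold none before the start. The stretch of *Cxcl2* is shown with the matched letters in capitals.
*Cxcl2* (chr5:90903772-90903860, plus strand): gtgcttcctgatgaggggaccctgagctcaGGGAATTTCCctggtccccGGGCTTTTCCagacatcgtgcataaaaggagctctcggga

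Phosphatases of MAP kinases moved in both directions. Of 28 immediate early and feedback genes compared, 17 were higher and 1 was lower (median 1.25). *Dusp1*, a nuclear phosphatase that acts mainly on p38 and JNK, went from 638 to 5177 (3.00, 8.01-fold), and *Dusp8*, which also acts on JNK, from 245 to 1738 (2.81). *Dusp6*, the cytosolic phosphatase of ERK, went from 43066 to 20291 (-1.11, 2.15-fold lower), and *Dusp7*, another phosphatase of ERK that was on no list, from 6604 to 948 (-2.82, 7.06-fold lower). *Dusp4*, which also acts on ERK, went from 3145 to 8513 (1.42). *Jun* was 2.75-fold higher and *Fos* 2.64-fold higher. *Zfp36* (tristetraprolin), which destroys cytokine mRNAs, went from 268 to 1591 (2.55, 5.86-fold).

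Toll-like receptors, sensors and cell death genes were divided. Of 34 compared, 7 were higher and 5 were lower (median 0.22). *Tlr1* went from 1770 to 605 (-1.57), and its close relative *Tlr6* from 884 to 304 (-1.56), while their partner *Tlr2* stood at 9770 and 11688 (0.24). *Tlr13*, a receptor for bacterial ribosomal RNA, went from 11315 to 3657 (-1.65). *Pycard* (ASC), the adaptor of inflammasomes, went from 10612 to 3872 (-1.47). *Casp4*, the sensor of cytosolic lipopolysaccharide, went from 9831 to 77680 (2.96, 7.80-fold higher), and *Cgas*, the sensor of cytosolic DNA, from 13893 to 45735 (1.70, 3.25-fold higher).

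Surface receptors and lineage factors of macrophages were also divided. Of 43 surface receptor genes, 5 were higher and 7 were lower (median -0.17). *Cx3cr1*, the fractalkine receptor, went from 1642 to 272 (-2.61, 6.12-fold lower), and its other probe gave -2.37. *P2ry6*, a receptor for UDP, went from 26796 to 12042 (-1.17). *Axl*, a receptor for dying cells, went from 89.0 to 324 (1.84, 3.59-fold higher), and *Cxcr4* from 124 to 426 (1.76, 3.38-fold higher). Of 25 myeloid transcription factors, 6 were higher and 2 were lower (median 0.26). *Hhex* went from 4501 to 1218 (-1.90) and *Maf* from 2724 to 801 (-1.79), while *Irf8*, which directs monocyte development, went from 29932 to 88433 (1.54, 2.91-fold higher) and *Bach1*, a repressor of Nrf2 targets, was 3.60-fold higher. *Spi1* (PU.1) stood at 1081 and 558 (-0.97).

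The list with the lowest median was that of Myc, the D cyclins and the inhibitors of cyclin-dependent kinases, of which 8 of 14 were lower and 1 was higher (median -1.19). *Cdkn1a*, an inhibitor given above with the p53 targets, was not on this list and was higher (2.96). *Ccnd1*, the cyclin that carries cells from G1 into S phase, went from 42589 to 6037 (-2.84, 7.15-fold lower). *Ccnd2* went from 29577 to 11353 (-1.40) and *Ccnd3* from 25243 to 10578 (-1.27), so all D cyclins were past 2-fold. *Cdkn2d* (p19) went from 18474 to 5702 (-1.72, 3.28-fold lower). *Myc* stood at 785 and 436 (-0.87). *Mxd1*, which opposes MYC, was higher (923 and 4349, 2.22), and *Mxd3*, of the same family, was lower (581 and 109, -2.44).

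*Ccne1*, the cyclin of the entry into S phase, went from 8647 to 2077 (-2.08, 4.22-fold lower), and its other probe gave -2.15. Of the remaining 28 genes of DNA replication, 2 were higher, among them *Mcm10* (1.02), and none was lower, and all genes of the MCM helicase from *Mcm2* to *Mcm7* lay between -0.04 and 0.36. Of 28 mitosis genes, 4 were lower and none was higher (median -0.57). *Plk1*, the polo kinase of mitosis, went from 23435 to 7359 (-1.69, 3.23-fold lower). *Ccnb1*, cyclin B1, went from 9549 to 3131 (-1.63, 3.09-fold lower), while *Ccnb2* stood at 36539 and 24736 (-0.58). Clustered histone genes had 7 of 47 lower and 3 higher (median -0.25), and *H1f5*, a linker histone, went from 28441 to 7535 (-1.94).

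**Figure D4:**
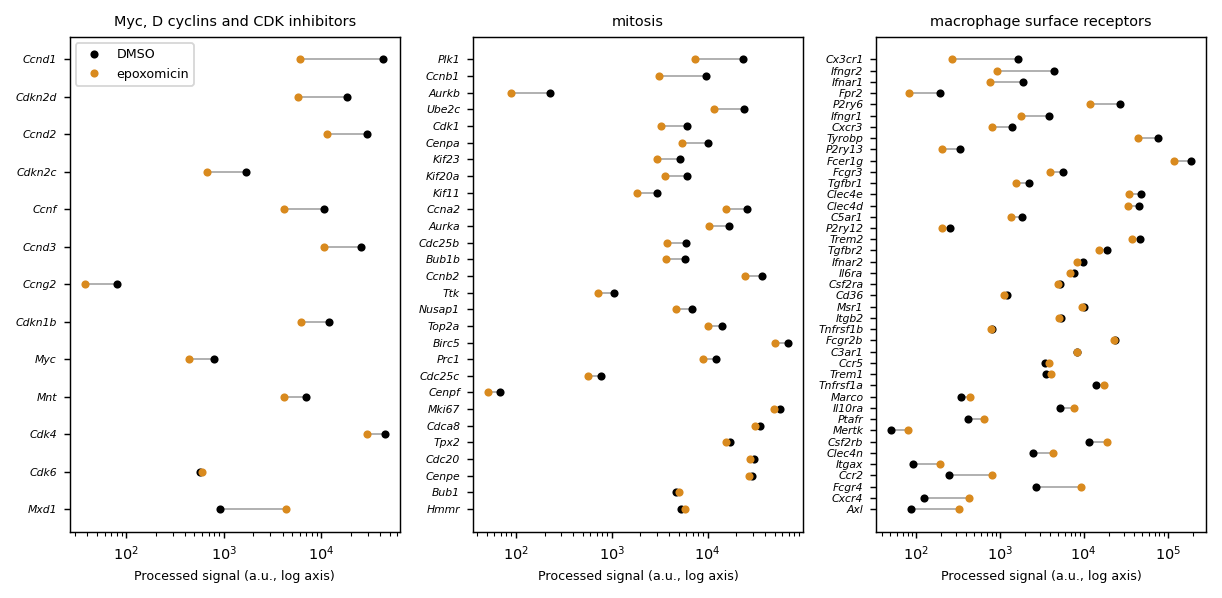
Processed signal (arbitrary units, log axis) with DMSO in black and epoxomicin in orange for members above background on both arrays of the lists of Myc, D cyclins and inhibitors of cyclin-dependent kinases, of mitosis, and of macrophage surface receptors, ordered by difference. The 3 D cyclins and *Plk1* shift left with epoxomicin, as do *Cx3cr1* and *Ifngr2*, whereas *Mxd1*, *Axl* and *Cxcr4* shift right.

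*Lfng*, which adds N-acetylglucosamine to Notch, went from 867 to 90.0 (-3.29, 9.77-fold lower), the largest decrease among genes measured on both arrays. *B3gnt7*, an N-acetylglucosaminyltransferase, went from 255 to 40.9 (-2.66, 6.32-fold lower), *Chst12*, a sulfotransferase for chondroitin, from 1162 to 219 (-2.43, 5.37-fold lower) and *Fut7*, a fucosyltransferase for selectin ligands, from 5044 to 1049 (-2.28, 4.87-fold lower). These genes were on no list. *Fut7* was named among genes with agreeing probes and the others among the largest decreases. *Sh2d3c*, an adaptor of cell migration, went from 3143 to 410 (-2.96, 7.76-fold lower). *Vapb*, which tethers the endoplasmic reticulum, had signals of 26573 with DMSO, 3251 with epoxomicin, 20221 with MG132 and 9370 with ONX, and its other probe differed by -0.07 between epoxomicin and DMSO. *Prrc2a* had 3497, 643, 2806 and 1707 in the same order, and *Pigt*, of the enzyme that attaches GPI anchors, had 7595, 1050, 3925 and 2987, with a difference of -0.77 for MG132. For *Prrc2a* and *Pigt* no other probe was above background on both arrays.

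In the groups that follow, most genes stayed within 2-fold of their DMSO level. None of 76 cytosolic ribosomal protein genes passed 2-fold (median 0.02, a sign that changed under other scalings), and the median was -0.21 for 74 mitochondrial ribosomal proteins, with 4 lower and none higher, and -0.31 for 90 genes of oxidative phosphorylation, with 2 lower and 1 higher. Of 25 genes of cholesterol synthesis and efflux, *Insig1* alone passed (1.04). Of 24 genes of HIF-1 and glycolysis 2 were higher, *Ndrg1* (1.69) and *Pfkp* (1.11), and *Ldha* stood at 234012 and 152748 (-0.64). Of 11 reference genes 10 lay within 2-fold, and *Gusb*, a lysosomal enzyme, was lower (34060 and 13480, -1.36).

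The spread of the measurement could be read only from probes printed 10 times. Among 250 such probes above background on both arrays, the median SD over spots was 0.0606 on the log2 scale with DMSO and 0.0552 with epoxomicin, and the median standard error of a difference was 0.0268. It covers the printing and reading of 1 RNA sample per condition. On that scale *Ptgs2* differed by 3.71 ± 0.0202 (SE, 9 spots per array left after outliers), *Cdkn1a* by 2.96 ± 0.0215 (SE, 10 spots) and *Csf1* by 2.92 ± 0.0240 (SE, 10 spots). *Lmnb1*, lamin B1, differed by -1.79 ± 0.0206 (SE, 10 spots) and *Tnf* by -1.37 ± 0.0202 (SE, 10 spots). Of the 250, 32 were higher and 11 were lower. Split into 8 regions of the array, the median difference lay between -0.05 and -0.02 and the share higher between 6.12% and 7.27%.

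**Figure D5:**
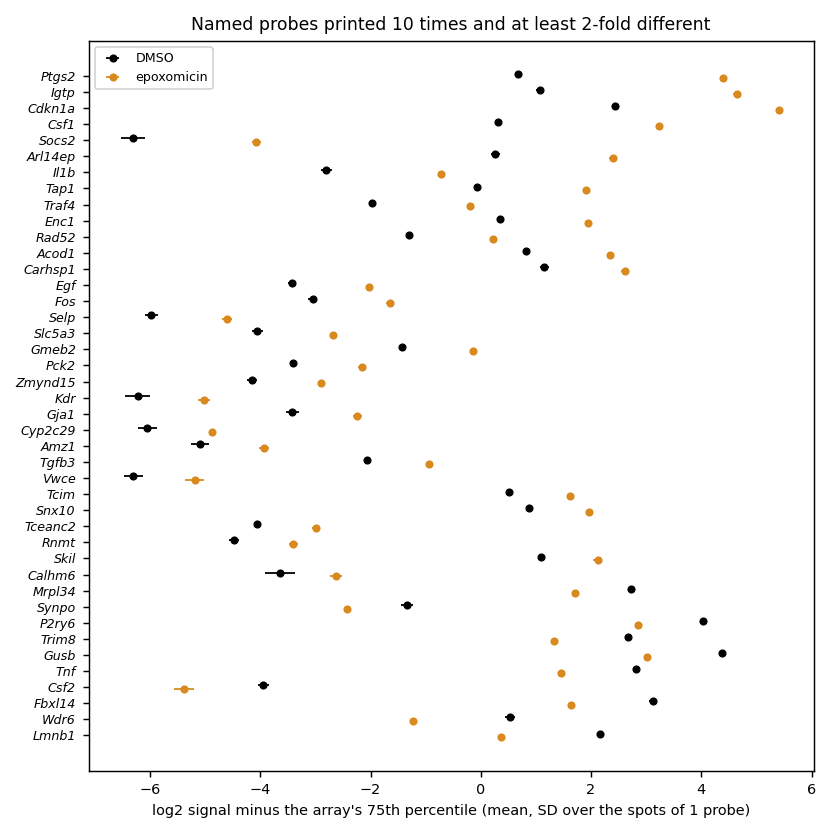
Log2 signal minus the 75th percentile of the array, as mean and SD over the spots of a probe printed 10 times, with DMSO in black and epoxomicin in orange, for the named probes at least 2-fold different. The error bars, which cover spots of 1 array, are short against the distance between arrays for *Ptgs2* (3.71) and *Lmnb1* (-1.79), and wider for faint probes.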

How the data were processed

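Total RNA of J774.1 cells was hybridized in a single color (Cy3), 1 array per condition. The authors deposited scanner intensity values of Feature Extraction 10.7.1.1, background-subtracted within the array and not scaled between arrays, and each spot carried 0 or 1 marks for background, saturation and outliers. They also deposited log2 values from GeneSpring, with the median of every probe over the 4 arrays set to 0. Of these, 39483 entries served as an alternative. Their column medians were -0.05 (DMSO), 0.02 (MG132), -0.02 (epoxomicin) and 0.01 (ONX), and their differences matched the scanner's with a slope of 1.00. The paper names a human array design, and the file headers describe a mouse design. The label of the ONX array names another compound than its protocol does.

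Control spots and outlier spots were left out, spots of a probe were averaged, and each array was scaled to its 75th percentile over all spots that were not controls. Symbols came from transcript accessions in the RefSeq table of GRCm38.p6, and the probe with the highest mean over the 4 arrays stood for a gene. *Mx1*, *Mx2*, *Hspa1b*, *Cxcl11* and *Cd68*, which had no named probe, were not analysed here. A few members of the lists and 1 family are not reported here, and the counts of their lists include them. Genes named were the 15 largest changes each way among genes above background on both arrays with a signal of at least 200, the 5 largest bounds each way, the 5 largest each way with agreeing probes, extremes of symbol families, Cxcl9, Cxcl10 and Cxcr3, and members of 30 lists and 12 families. The members and lists were chosen with earlier results of these data known. The calculation was run on simulated data with spot noise only, which checks the arithmetic and leaves out variation between cultures. Tools were Python 3.11.15, numpy 2.4.6, pandas 2.3.3, matplotlib 3.10.9, R 4.3.3 and limma 3.58.1. The alternatives were normexp (offset 50) on median spot brightness, 5 other scalings or value tables, other choices of probe, bound and filter, and thresholds of 1.5-fold and 4-fold.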

Additional observations from a re-analysis of the deposited data

Results flagged for a closer look

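Signals appeared outside the named genes. Of 12848 probes that could not be given a symbol through their accession, 6961 were compared, and 552 of them (7.93%) were higher by 2-fold or more and 421 (6.05%) were lower by as much. The probe A_51_P514085 had the largest increase among those above background on both arrays with a signal of at least 200 on the brighter one, from 718 with DMSO to 58065 with epoxomicin (6.32), followed by A_55_P2170405, from 68.8 to 4936 (6.15). The largest decreases were those of A_52_P562158, from 277 to 43.3 (-2.70), and A_55_P2119927, from 2598 to 429 (-2.62). With 1 array per condition these differences were not tested.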

How the results depend on the processing

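No replicate could be left out, and no paired analysis was possible because each condition had 1 array. The 1177 higher and 611 lower genes became 569 and 3028 under normexp, 697 and 380 with control and outlier spots left out of its fit, 2295 and 1982 at 1.5-fold, and 337 and 60 at 4-fold. With probes called positive and significant in place of well above background, 1026 genes were lower, and with no filter 1573 were higher and 876 lower. Under the other settings each count was within 1.5 times the main one: 1048 higher and 767 lower after a shift to the median, 1109 and 683 after quantile normalization, and 1192 and 825 in the value table of the authors. The cause of the normexp counts was not tested. Of 276 named or listed genes past 2-fold, between 263 and 276 stayed past it in the same direction under the other scalings, bounds, value table and choices of probe; under normexp 239 of 274 did and under the cleaned normexp fit 249 of 275. Among them, those that reversed, all higher in the values reported and all under normexp, were *Bik* (-1.08), *Cebpa* (-1.11), *Hspb1* (-0.53), *Itgax* (-0.36), *Lif* (-0.66), *Olfr1394* (-0.47), *Ripk2* (-0.15) and *Ubxn4* (-0.94), whose DMSO signals were at most 110. The median changed sign with the scaling in 3 groups where it was near 0, those of cytosolic ribosomal proteins, E2 enzymes and cholesterol genes, and those of Zfp genes, tripartite motif genes and myeloid transcription factors did so under normexp.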

Other observations

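Gene families taken by symbol gave further values, which stand against 8.49% higher and 4.41% lower over all genes. Of 45 tripartite motif genes, many of them ubiquitin ligases of antiviral defense, 12 were higher and 1 was lower (median 0.35, which was -0.08 under normexp). *Trim30b* had a signal of 54.1 with DMSO and 372 with epoxomicin (2.76), and *Trim8*, an activator of NF-kB signaling, 10502 and 4177 (-1.35). Of 45 ubiquitin-specific proteases 4 were higher and 1 was lower, and *Usp18*, which removes ISG15, led with 6335 and 59414 (3.21), while none of 31 E2 enzymes was higher and 2 were lower, among them *Ube2c* (-1.04), the E2 of the anaphase-promoting complex. Of 291 Zfp zinc finger genes 28 were higher and 10 were lower, and of 260 solute carriers 29 were higher and 5 were lower.

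Other motifs were searched in the promoter windows, without a test. The antioxidant response element, searched as TGACNNNGC, was in 12.4% of all windows and in 13.9% of those of all genes compared. It was in 13.8% of the windows of higher genes, in 14.6% of those of lower genes and in 8 of 27 windows of the Nrf2 list (29.6%). The share of the other lists searched ran from 11.8% for the interferon-γ list to 41.2% for amino acid synthesis and transport, with 35% for the Myc list. *Gclm* had a match before its start, and *Slc7a11*, *Srxn1* and *Sqstm1* had none. The E2F element, searched as TTTNGCGC, was in 1.38% of all windows, in 2.22% of those of all genes compared, in 2.15% of those of higher genes and in 4 of 604 windows of lower genes (0.662%).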
